A study of Mus musculus with 2 samples.

Results

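The ATF4 and CHOP stress transcription module was defined as 10 genes (Atf3, Atf4, Atf5, Ddit3, Cebpb, Cebpg, Trib3, Nupr1, Ppp1r15a and Gdf15), listed by name with earlier results of these data known. Of these 10, 9 had a probe set that named no other gene, 1 probe set each, among 19938 genes measured on the arrays. Gdf15, a secreted stress cytokine of the TGF-beta superfamily, had none and was not analysed here. Mouse embryonic fibroblasts carrying an adenovirus that expresses LacZ, a bacterial enzyme gene, were given DMSO, the solvent, or 250 nM celastrol, a plant triterpenoid. Both cultures stood for 7 h in DMEM with 1% FBS, and each was measured on 1 Affymetrix whole-transcript array. The virus was common to both groups, so its own effect was not measured. The strain, the embryonic stage and the number of embryos behind each culture are not stated in the labels.

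ATF4 is a basic leucine zipper (bZIP) transcription factor whose protein is made mainly when the initiation factor eIF2 is phosphorylated, a state set by a family of stress-activated kinases. It binds with C/EBP partners to a composite C/EBP-ATF element and switches on amino acid supply genes, further bZIP factors such as ATF3 and CHOP (the product of Ddit3), and genes that end the response. Because that control acts on translation, the Atf4 transcript is known as an incomplete measure of ATF4 protein, which was not measured here.

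Promoter sequence from RefSeq (GRCm38.p6) was available for all 9 measured genes, with 10 starts in all, and the 250 bases before each start were searched on both strands. The composite element, spelled TGATGNAAN, was present before Atf3 and Nupr1, that is in 2 of 9 genes, and in 3.44% of the 32851 promoters in the table. Both matches lay at bases -111 to -103 from the start and on the strand opposite to the gene. The cyclic AMP response element TGACGTCA was present before Ppp1r15a at bases -12 to -5, and in 1.55% of all promoters. The C/EBP site TTGCNNAA (9.56% of promoters) and a spacing with 1 more base, TTGCNNNAA (8.29%), were found before 0 of the 9 genes. With 9 genes, 0 cannot be told apart from those shares. The stretches with a match are shown for Atf3, Nupr1 and Ppp1r15a, with the match in capitals. They are also shown for Slc7a11 and Chac1, the ATF4 targets with the highest differences. They cover chr1:191183394-191183493 (minus strand) for Atf3, chr7:126625531-126625630 (minus strand) for Nupr1, chr7:45526269-45526368 (minus strand) for Ppp1r15a, chr3:50443614-50443713 (minus strand) for Slc7a11 and chr2:119351002-119351101 (plus strand) for Chac1. A match is a description of these letters and no evidence of binding.
Atf3: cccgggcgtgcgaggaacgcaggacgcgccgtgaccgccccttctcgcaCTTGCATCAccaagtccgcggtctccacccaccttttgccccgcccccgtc
Nupr1: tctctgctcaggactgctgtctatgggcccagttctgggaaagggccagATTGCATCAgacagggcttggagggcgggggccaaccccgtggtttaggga
Ppp1r15a: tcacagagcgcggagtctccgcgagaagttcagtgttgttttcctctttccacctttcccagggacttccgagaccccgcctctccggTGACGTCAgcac
Slc7a11: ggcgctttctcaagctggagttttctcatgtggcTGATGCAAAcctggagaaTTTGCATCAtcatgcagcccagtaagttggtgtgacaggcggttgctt
Chac1: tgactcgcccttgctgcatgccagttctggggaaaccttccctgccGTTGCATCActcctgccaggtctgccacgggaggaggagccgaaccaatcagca

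With celastrol, all 9 measured genes had higher values than with DMSO, 5 of them by at least 2-fold and 0 lower. Values are the authors' RMA values on a log2 scale, and a difference is the celastrol value minus the DMSO value. Among the 13896 detected genes, 1.89% were at least 2-fold higher, 0.662% were at least 2-fold lower, and 48.1% were higher by any amount. Detected means above 5.73 on 1 array or both, a limit set at the 95th percentile of the 1205 olfactory and vomeronasal receptor probe sets, which serve as unexpressed genes. That limit lies below the median of all probe sets (6.34), so genes counted as detected may include unexpressed ones. All 9 genes exceeded it on both arrays. The differences of the module ran from 0.55 to 2.15 with a median of 1.34, against a median of -0.01 over all detected genes. The design has 1 array per group, so no difference was tested, none has an error or a replicate check. The effect of the compound cannot be told apart from that of the culture or the array. The 2-fold mark is a size and carries no error rate.

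**Figure D1:**
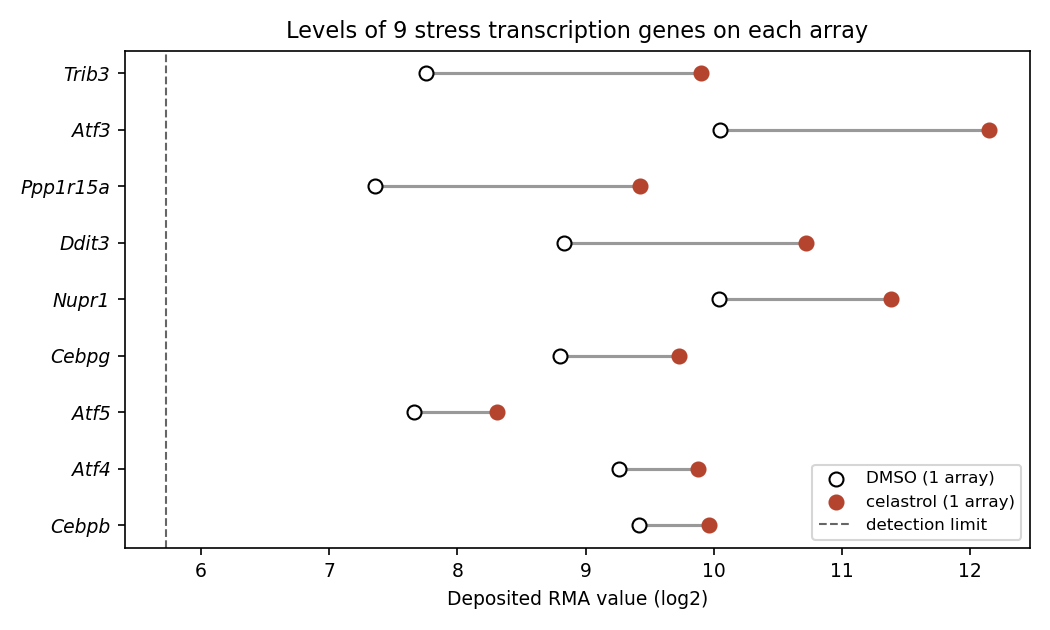
Deposited RMA values (log2, horizontal axis) of the 9 measured genes, with 1 open point for the DMSO array and 1 filled point for the celastrol array, joined by a line, and the detection limit of 5.73 dashed. Every filled point lies to the right of its open point, by 0.55 for Cebpb up to 2.15 for Trib3.

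The activators Atf4 and Atf5 had smaller differences than every other measured member except Cebpb. Atf4 (probe set 10425364) stood at 9.26 with DMSO and 9.88 with celastrol, a difference of 0.61 or 1.53-fold. Atf5 (probe set 10562905), which encodes a bZIP factor whose translation is also raised by eIF2 phosphorylation, stood at 7.66 and 8.31, a difference of 0.64 or 1.56-fold. Both were higher in the celastrol culture, and neither reached 2-fold. Their differences held places 789 and 728 in the order from the highest to the lowest of the 13896 detected genes. Of the 39 detected ATF4 targets outside the module, 25 had a difference at least as large as that of Atf4 itself.

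The stress-induced factors that act downstream of ATF4 had larger differences. Atf3 (probe set 10361091), a bZIP factor that represses or activates depending on its partner, stood at 10.05 with DMSO and 12.15 with celastrol. This is a difference of 2.10, or 4.28-fold, at place 16 of all detected genes. Ddit3 (probe set 10366881), which encodes CHOP, a C/EBP relative linked to cell death under lasting stress, stood at 8.83 and 10.72. Its difference of 1.89, or 3.70-fold, held place 27. Atf3 carries the composite element shown above, and Ddit3 had no match in the bases searched.

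The C/EBP partners differed less. Cebpg (probe set 10562416), whose product lacks an activation domain of its own and pairs with ATF4, stood at 8.80 with DMSO and 9.73 with celastrol, a difference of 0.93 or 1.91-fold. Cebpb (probe set 10478890), an activator of inflammatory and stress genes, stood at 9.42 and 9.96, a difference of 0.55 or 1.46-fold, the lowest of the 9. Both were higher in the celastrol culture, below the 2-fold mark, at places 321 and 971.

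The genes that feed back on the response were among the highest. Trib3 (probe set 10488608), a pseudokinase that binds ATF4 and CHOP and restrains them, stood at 7.75 with DMSO and 9.90 with celastrol. Its difference of 2.15 was the highest of the module, at place 15. Ppp1r15a (probe set 10563338) encodes GADD34, the subunit that directs protein phosphatase 1 to remove phosphate from eIF2. It stood at 7.36 and 9.43, a difference of 2.07 or 4.19-fold, at place 18. Together with Atf3 these genes made 3 of 9 at least 4-fold higher, against 0.137% of detected genes.

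Nupr1 (probe set 10567995), a small chromatin-associated stress protein, lay between the groups. It stood at 10.04 with DMSO and 11.38 with celastrol, a difference of 1.34 or 2.53-fold, at place 110. The match to the composite element before Nupr1 has the same offset as that before Atf3, while the difference of Atf3 was larger by 0.76 on the log2 scale.

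**Figure D2:**
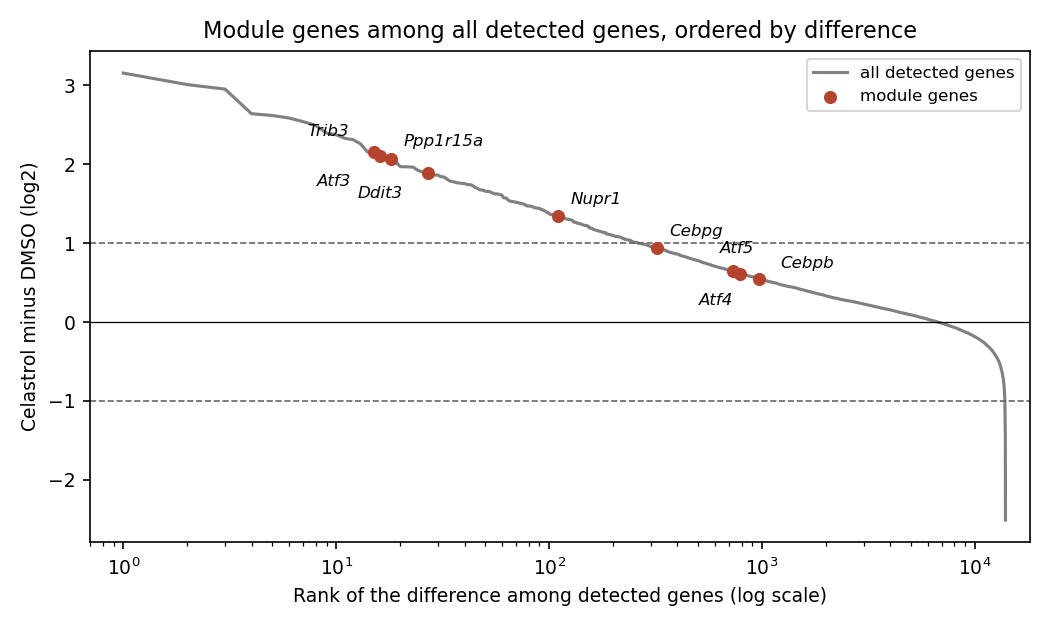
Differences (celastrol minus DMSO, log2, vertical axis) of the 13896 detected genes in order from the highest to the lowest (rank on a log axis), with the 9 module genes as points and 2-fold dashed. Trib3, Atf3, Ppp1r15a and Ddit3 lie at places 15 to 27, Nupr1 at 110, and Cebpg, Atf5, Atf4 and Cebpb at 321 to 971.

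The module was set beside other bZIP factors, since its 6 bZIP members share the dimerisation domain with them. Of 41 other bZIP factors detected, 4 (9.76%) passed 2-fold upward and 0 downward, against 1.89% and 0.662% of all detected genes. Their median difference was 0.21. In the order of all 47 detected bZIP genes Atf3 and Ddit3 came first and second, Cebpg 7, Atf5 12, Atf4 14 and Cebpb 16. Maff, a small Maf partner of NRF2, came next after Ddit3, at 7.19 with DMSO and 8.87 with celastrol, a difference of 1.68. Atf6, the membrane-bound sensor of the endoplasmic reticulum, stood at 9.77 and 11.03 (1.26), and Fosl1, an AP-1 subunit, at 9.95 and 11.17 (1.23). At the other end, Cebpd stood at 8.78 and 7.97 (-0.81), Maf at 9.84 and 9.28 (-0.56) and Bach2 at 7.22 and 6.80 (-0.42). None of these 3 lower values reached 2-fold.

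The closest relatives of the members gave no value past 2-fold in either direction (0 of 8), and their median was 0.03. Over all detected genes 1.89% passed 2-fold upward and 0.662% downward. With 8 genes, 0 cannot be told apart from those shares. Cebpd, a C/EBP activator of acute-phase genes, was lower by 0.81 on the log2 scale where Cebpb was higher by 0.55. Trib2, a pseudokinase related to Trib3, stood at 10.16 with DMSO and 9.82 with celastrol, a difference of -0.34. Ppp1r15b, the constitutive counterpart of Ppp1r15a, stood at 9.52 and 9.57, a difference of 0.05, and its second probe set gave -0.16. Nupr1l, a relative of Nupr1, stood at 6.46 and 6.47 (0.01). Cebpe, a myeloid C/EBP factor, stood near the detection limit at 5.77 and 6.10 (0.33), and Jdp2, a bZIP repressor close to Atf3, at 8.67 and 8.84 (0.17).

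Transcripts that act upstream of ATF4 lay near 0 or slightly below it. Of 20 detected genes for the eIF2 kinases, eIF2, its exchange factor eIF2B and the phosphatase, 5 were higher (25%) and 15 lower. Over all detected genes 48.1% were higher. In this list 0 reached 2-fold in either direction, and the median was -0.18. Of all detected genes 1.89% passed 2-fold upward and 0.662% downward, so 0 of 20 cannot be told apart from those shares. None of the 4 kinase transcripts was higher with celastrol. All 4 differences lay within -0.42 to 0.41, the central 95% of the differences of the receptor probe sets. Eif2ak1, the haem-regulated kinase HRI, stood at 9.63 with DMSO and 9.62 with celastrol (-0.0021). Eif2ak2, the double-stranded RNA sensor PKR, stood at 8.79 and 8.45 (-0.35), and Eif2ak3, the endoplasmic reticulum kinase PERK, at 8.33 and 8.06 (-0.26). Eif2ak4, the amino acid sensor GCN2, stood at 8.56 and 8.43 (-0.13). Transcript levels do not measure kinase activity. Eif2b2 (0.67), Eif2s2 (0.36) and Eif2b4 (0.32), subunits of eIF2B and eIF2, had the highest differences, and Eif2b1 (-0.53) and the phosphatase catalytic subunit Ppp1ca (-0.32) were with Eif2ak2 the lowest.

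ATF4 targets outside the module, mostly amino acid enzymes, transporters and tRNA synthetases, were higher as a group. Of 39 detected, 38 (97.4%) were higher, against 48.1% of all detected genes, and 1 lower. Upward differences of 2-fold or more were seen for 9 (23.1%) and downward ones for 0, against 1.89% and 0.662% of all detected genes. The median of the list was 0.67. Slc7a11, the cystine transporter subunit that NRF2 also controls, stood at 7.92 with DMSO and 11.08 with celastrol (3.15). Chac1, which degrades glutathione and is a target of ATF4 and CHOP, stood at 9.58 and 12.12 (2.54). Ddit4, an inhibitor of mTORC1, stood at 9.01 and 10.53 (1.52). These had the highest differences on the list, and the first 2 exceeded every member of the module. The 11 tRNA synthetases of the list ran from -0.0042 for Mars1 to 1.04 for Cars, which alone reached 2-fold. The lowest values were Mars1, Slc38a2, a neutral amino acid transporter (0.14), and Jdp2 (0.17).

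Of the 31 detected ATF4 targets with a promoter sequence, 9 (29.0%) held TGATGNAAN before the start, against 2.35% of the 10981 detected genes with a promoter sequence. The list was drawn from published ATF4 targets, some of which were found through this element, so the share is not independent of the list. Of the other motifs, TTGCNNNAA, the spacing 1 base too long, lay before 7 of the 31 (22.6%, against 7.48% of detected genes). TTGCNNAA lay before 4 (12.9%, against 8.64%) and TGACGTCA before 0 (against 2.87%). Slc7a11 held 2 matches to TGATGNAAN, at bases -66 to -58 and -48 to -40. Among the 9, the differences ran from 0.17 for Jdp2 to 3.15 for Slc7a11, so a match went with small and large differences alike. Over all 258 detected genes with the element, 3.10% were at least 2-fold higher and the median was 0.05. Over the 10723 without it, 1.73% were at least 2-fold higher and the median was -0.02. The 258 include Atf3, Nupr1 and the 9 listed targets, so this contrast is not independent of the lists either. Of the 8 genes behind the 3.10%, Atf3, Nupr1, Chac1, Slc7a11 and Vldlr come from the lists. The excess over 1.73% rests on these listed genes.

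**Figure D3:**
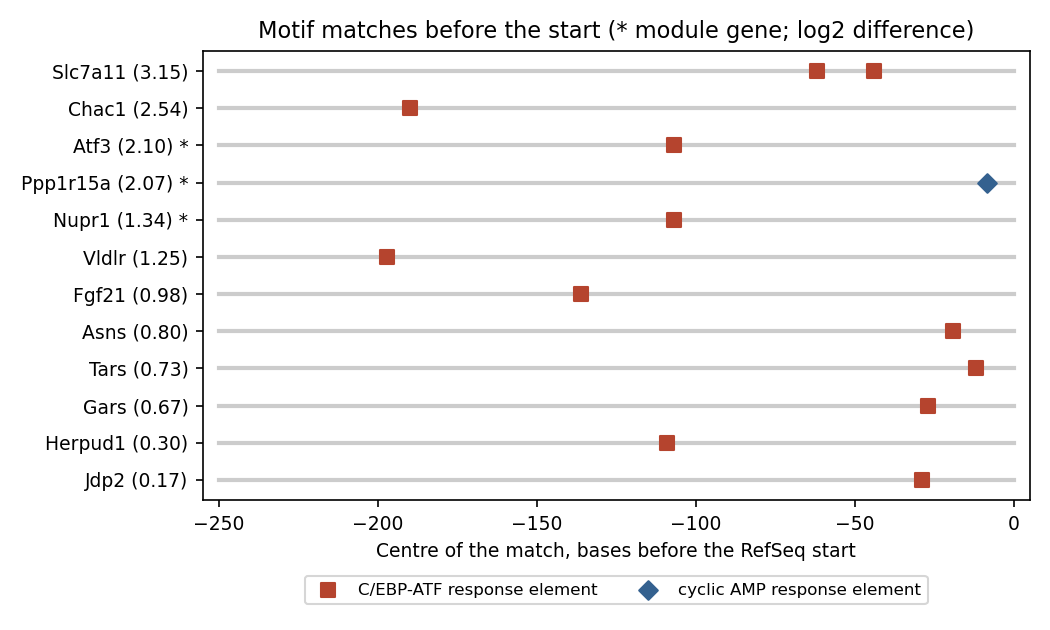
Positions of matches to the C/EBP-ATF response element (squares) and the cyclic AMP response element (diamond) in the 250 bases before the RefSeq start (horizontal axis, bases), for module genes (asterisk) and ATF4 targets that hold one, ordered by difference (log2, in parentheses). Atf3 and Nupr1 hold the C/EBP-ATF element at the same distance, and Slc7a11 holds 2.

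Genes linked to CHOP and to cell death were mixed. Of 10 detected, 8 (80%) were higher, against 48.1% of all detected genes, and 2 lower. The median was 0.24. Against 1.89% and 0.662% of all detected genes, 3 (30%) passed 2-fold upward and 0 downward. Car6, a carbonic anhydrase with a stress-induced form that depends on CHOP in mouse cells, lay below the limit in the DMSO array (5.64) and stood at 8.04 with celastrol, at least 4.96-fold higher when taken against the limit. Pmaip1, which encodes the death factor NOXA, stood at 6.88 and 7.99 (1.11). Ero1a, an oxidase of the endoplasmic reticulum and CHOP target, stood at 10.44 and 11.53 (1.08). Bcl2, a survival gene that CHOP is known to repress, stood at 9.27 and 8.38 (-0.89), short of 2-fold. Vill (-0.06) and Tenm4 (0.02), described as CHOP-dependent transcripts in mouse cells, were near 0, and Vill lay close to the detection limit.

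Targets of ATF6 and XBP1, which mark the other arms of the endoplasmic reticulum stress response, had no common direction. Of 25 detected, 10 (40%) were higher, against 48.1% of all detected genes, and 15 lower. The median was -0.07. Against 1.89% and 0.662% of all detected genes, 1 (4%) passed 2-fold upward and 0 downward, counts that cannot be told apart from those shares. That gene was Dnajb9, a co-chaperone of the endoplasmic reticulum, at 8.39 with DMSO and 10.12 with celastrol (1.72). Herpud1 (0.30), which ATF4 also controls, and Derl1 (0.28), both of the degradation machinery, came next. The lowest were Creld2 (-0.66), Sdf2l1 (-0.54) and the translocon subunit Sec61b (-0.37, with -0.52 and -0.48 on its other probe sets). The difference between this list and the module or the ATF4 targets was not tested.

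**Figure D4:**
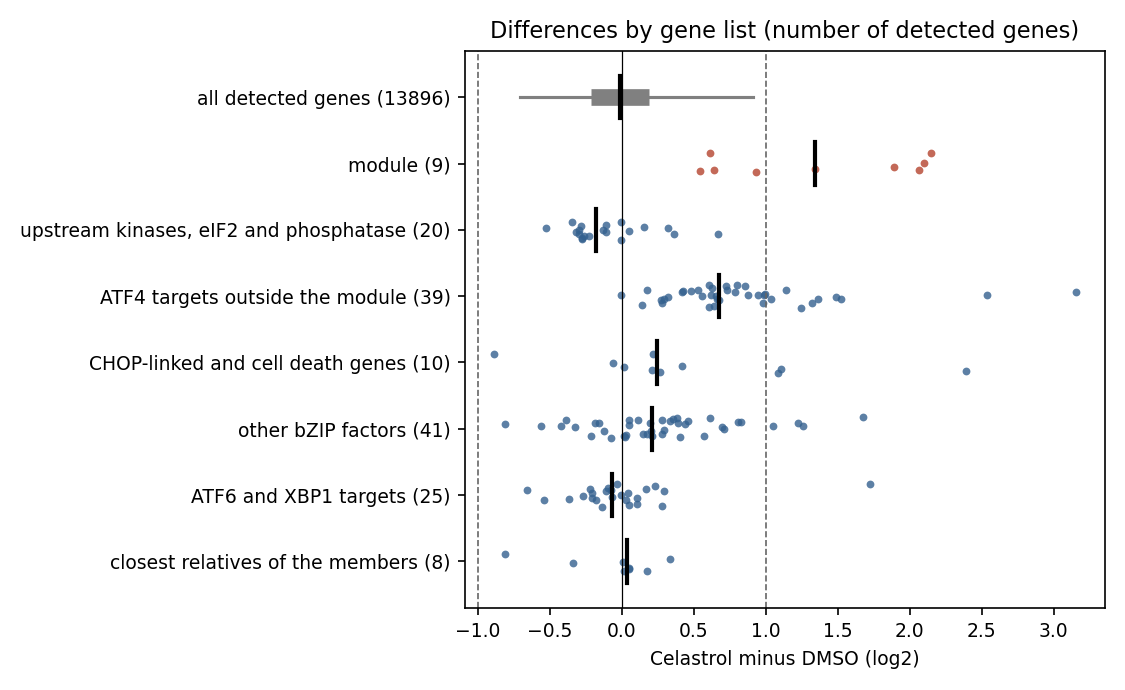
Differences (celastrol minus DMSO, log2, horizontal axis) of the detected genes of each list, 1 point per gene, with the median as a black bar and 2-fold dashed. All detected genes are shown by their median, interquartile range (thick) and central 95% (thin). The module's median is 1.34, that of ATF4 targets outside it 0.67, and the other lists have medians from -0.18 to 0.24.

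The labelled cell type was checked with marker genes. All 10 fibroblast markers were detected, with Vim at 13.85 with DMSO and 13.95 with celastrol, Fn1 at 13.42 and 13.47 and Col1a1 at 12.16 and 11.69. Of the 10, 3 were higher with celastrol, against 48.1% of all detected genes, and 7 lower, 0 by 2-fold. The values of the 10 summed on the linear scale went from 42662 to 39556. Among leukocyte markers Ptprc, Itgam and Adgre1 were under the limit on both arrays. Cd14 (6.94 and 7.65), Cd3e (6.15 and 6.35) and Csf1r (5.99 and 6.25) passed it on both, and Tyrobp (5.69 and 5.78) on the celastrol array only. The summed leukocyte level went from 410 to 518 over 7 markers, those under the limit included. Cd14 was the brightest of them and had the largest difference (0.71). The part of leukocytes in the differences of the module was not tested. Of the endothelial markers Tie1 (6.19 and 6.22) passed the limit on both arrays, Cdh5 (5.62 and 5.77) on the celastrol array only and Pecam1 (5.32 and 5.69) on neither. Krt8 (6.96 and 6.92), Krt18 (6.19 and 6.20) and Cldn4 (5.90 and 5.85) led the epithelial list. Tnnt2 (8.34 and 9.21), Acta1 (7.17 and 7.08) and Ckm (7.00 and 6.74) led the muscle list, and Map2 (8.02 and 7.60) and Tubb3 (6.41 and 6.56) the neural one, with Gfap under the limit (5.23 and 5.55). The summed levels of the other marker lists, markers under the limit included, went from 237 to 258 (endothelial) and 347 to 349 (epithelial). They went from 719 to 973 (muscle) and 414 to 371 (neural). In the muscle list Tnnt2 had the largest difference (0.87), while Acta1 and Ckm were lower. In a culture, fewer cells of a type and less RNA per cell cannot be told apart.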

How the data were processed

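The deposited values are log2 values per probe set, made by the authors with RMA, per the submitters' processing notes; its version and settings were not given in the sources used here. A log2 base was inferred from the values (2.73 to 14.52, medians 6.33 and 6.35). Whether further arrays were normalized together with these is unknown, and background and saturation of each array were not examined. RMA compresses differences of dim probe sets.

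Of 35556 probe sets, 21789 named 1 gene, 1621 several and 12146 none in GEO's platform annotation, and the first kind was used. Entrez identifiers of 21698 were found in RefSeq's GRCm38.p6 gene table, used for symbols only. A gene took its probe set with the highest mean, which concerned 999 of 19938 genes. With 1 array per group nothing was tested, and the number of arrays limits the precision. The calculation was tested on simulated data with planted shifts, which checks the code and not the spread between cultures or arrays.

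The members, 6 pathway lists and 6 marker lists were chosen with earlier results of these data known. Of the pathway genes, 8 stood on 2 or more lists. Detected were 39 of 42 listed ATF4 targets, 20 of 21 upstream genes, 41 of 43 other bZIP factors, 10 of 10 CHOP-linked genes, 25 of 25 ATF6 and XBP1 targets and 8 of 8 relatives. All members are named, with the 3 highest and 3 lowest detected genes of each pathway list, the eIF2 kinases and the 3 brightest genes of each marker list. Cars, Vldlr, Gadd45g and other genes outside that rule were chosen after their values were seen. They are named for a motif match, as the end of a range or for their place against the detection limit. The motif TTGCNNAA was added after the data were seen, because TTGCNNNAA had 1 base too many for a C/EBP site. Alternatives were other detection limits, the mean of probe sets, quantile normalization, subtraction of the median or of a lowess trend (fraction 0.3), and 1.5-fold or 3-fold marks. Python 3.11.15 was used with pandas 2.3.3, numpy 2.4.6, statsmodels 0.14.6 (lowess) and matplotlib 3.10.9.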

Additional observations from a re-analysis of the deposited data

How the results depend on the processing

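All 9 differences stayed on their side of 2-fold in 54 of 54 recalculations. The settings were other detection limits, the mean of probe sets, quantile normalization and subtraction of the median or a lowess trend. Detection limits do not enter a member's difference, and each member has 1 probe set, so those limits and the mean of probe sets could not move it. Quantile normalization and the subtractions could, and moved the differences by at most 0.07 on the log2 scale. The module's median ran from 1.34 to 1.37, that of ATF4 targets from 0.67 to 0.70, that of the upstream genes from -0.18 to -0.14 and that of ATF6 and XBP1 targets from -0.07 to -0.02. The median over all detected genes changed sign, from -0.03 to 0.0038. At the 2-fold mark these settings left 5 module genes higher, gave 9 to 11 ATF4 targets higher, and gave 257 to 298 genes higher and 83 to 92 lower in all. Another fold mark moved counts by construction. At 1.5-fold, 8 module genes, 27 ATF4 targets, 9 other bZIP factors, 3 CHOP-linked genes, 1 ATF6 or XBP1 target and 1 upstream gene were higher, and 1 other bZIP factor, 1 relative, 1 CHOP-linked gene and 1 ATF6 or XBP1 target were lower, among 860 higher and 651 lower genes in all. At 3-fold, 4 module genes, 2 ATF4 targets, 1 CHOP-linked gene, 1 other bZIP factor and 1 ATF6 or XBP1 target were higher, among 60 higher and 19 lower in all. No paired analysis was possible because each group has 1 array. Leaving out an array was not run for the same reason. Arrays carry no counts, so depth does not apply, and signal over background was not examined.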

Other observations

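Among genes at least 2-fold higher with celastrol, 8 held the C/EBP-ATF element TGATGNAAN within 250 bases before the start. They are listed here after their values were seen, and made 3.10% of the 258 detected genes with the element. Of the 10723 without it, 1.73% were at least 2-fold higher. Of the 8, Atf3, Nupr1, Chac1, Slc7a11 and Vldlr come from the module or the ATF4 list, and the excess over 1.73% rests on them. The others were Gadd45g, Fut8 and Samd8. Gadd45g, a stress-induced growth arrest gene, stood at 9.05 in the DMSO culture and 10.86 in the celastrol culture (3.52-fold), with its match at bases -102 to -94. Fut8, a fucosyltransferase, stood at 8.21 and 9.22, and Samd8, an enzyme of sphingolipid metabolism, at 8.65 and 9.66, both just over 2-fold. The element also lay before 2 of the genes at least 2-fold lower, Idi1, an enzyme of the mevalonate pathway (-1.73), and Lrrc17 (-1.28). These made 0.775% of the detected genes with the element, against 0.615% of those without it.

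A probe set naming both Aars, the alanyl-tRNA synthetase on the ATF4 list, and Exosc6 entered no comparison. It stood at 10.80 with DMSO and 11.52 with celastrol, a difference of 0.72.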
